A study of Mus musculus with 34 samples.

Results

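Stra8 and Rec8 are a pair of genes that mouse germ cells switch on as they leave mitosis for meiosis. Their probes were found by matching the array's accessions to mouse RefSeq symbols, which gave 1 probe for Stra8 and 2 for Rec8 among 41174 probes, so the members were 2 of the 33370 gene names on the array, 16398 of them symbols. The brighter Rec8 probe stood for the gene. In GRCm38.p6, Stra8 spans chr6:34920163-34939344 and Rec8 spans chr14:55618002-55625395. The positions of the probes within the genes were not given in the sources used here.

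Retinoic acid (RA), made from vitamin A in the testis, binds receptors that sit on DNA as dimers of a retinoic acid receptor and a retinoid X receptor. Stra8, named for its stimulation by retinoic acid, encodes a protein of premeiotic germ cells that is needed for meiotic initiation and binds promoters of meiotic genes together with MEIOSIN. Rec8 encodes the meiotic kleisin, the subunit that closes the cohesin ring around sister chromatids until the meiotic divisions. In the adult mouse testis, germ cells enter meiosis as preleptotene spermatocytes at stages VII and VIII of the seminiferous cycle, when RA peaks.

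The promoter windows are shown because the array comparisons concern an RA treatment and a blocked RA receptor. RefSeq's table for GRCm38.p6 gave the 250 bases before the start of each gene, on the + strand in both cases. The start used by the table lies inside the annotated gene span. Capitals mark AGGTCA, a motif of retinoic acid receptors, and CTGAGG, which is CCTCAG on the other strand, the core of letters reported at promoters bound by STRA8.
Stra8, chr6:34920698-34920947: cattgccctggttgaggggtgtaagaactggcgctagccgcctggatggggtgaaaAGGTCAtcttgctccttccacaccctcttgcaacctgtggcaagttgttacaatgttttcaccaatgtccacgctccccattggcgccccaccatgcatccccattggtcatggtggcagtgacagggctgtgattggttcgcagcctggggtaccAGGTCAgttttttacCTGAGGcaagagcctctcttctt
Rec8, chr14:55617916-55618165: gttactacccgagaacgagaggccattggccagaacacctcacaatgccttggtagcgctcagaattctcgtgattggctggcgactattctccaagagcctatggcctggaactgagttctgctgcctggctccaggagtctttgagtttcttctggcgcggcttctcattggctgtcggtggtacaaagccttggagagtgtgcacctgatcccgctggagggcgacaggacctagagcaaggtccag
The Stra8 window held AGGTCA at positions -194 and -38 from the start and CCTCAG on the other strand at -23. The Rec8 window held none of the letters searched on either strand, which were the receptor motifs AGGTCA and GGGTCA and AGTTCA and GGTTCA, and also CCTCAG. Of 32817 promoter windows of this length, 14.0% held AGGTCA, 38.6% held at least 1 of the 4 receptor motifs, 9.75% held at least 2 and 22.3% held CCTCAG. A pair of receptor motifs on 1 strand spaced by 1, 2 or 5 bases, the spacing of known response elements, was in 0.427% of windows and in neither gene's window. These matches describe letters and do not show binding.

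All arrays were of C57BL6/j mouse material from animals of 6 to 8 weeks, with 34 one-colour arrays in 17 groups of 2. Primary wild-type (WT) Sertoli cells, the somatic nurse cells of the tubule, were cultured for 24 hours with RA, at 1 mM per the labels, or with vehicle. Sertoli cells were also sorted by flow cytometry from Nanos3-knockout (N3KO) testes, in which germ cells are lost, and from WT testes, and whole testes were profiled. The sorting marker and the carrier of the vehicle were not given in the sources used here. Seminiferous tubules came from 4 stage groups (I-III, then IV-VI, then VII-VIII, then IX-XII), 5 days after a lentivirus carrying dnRARa, a dominant negative RA receptor alpha, or carrying Venus, a fluorescent protein used as control, was injected into the testis, or without injection. The titles of the third stage group say VI-VIII and its source names VII-VIII. The promoter of the virus and the cells that took it up were not stated. The design text calls the pairs biological duplicates and does not say which animals they came from, so p-values measure the spread between these samples.

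Values are log2 levels relative to the array's 75th percentile, so 0 is the signal of that spot and a step of 1 is a doubling. The share of spots well above background lay between 54.89% and 74.42%. Nanos3, the targeted gene, was at -7.11 and -7.27 in N3KO cells, not well above background, against -3.21 and -4.44 in sorted WT cells, and whether its probe lies in the deleted part is unknown. Of 17 Sertoli marker genes, 10 were higher and 1 lower in sorted WT cells than in whole testes, where 79.2% of all genes passed (38.4% higher, 40.8% lower). The sort also held RNA of other cells: Tnp1, a transition protein of spermatids, was at 7.87 and 6.99 in sorted WT cells and at 9.39 and 9.52 in whole testes. The sorted WT pair stood apart in its summed Sertoli markers, 114 and 360 times the 75th percentile signal, against 346 and 389 in the N3KO pair. N3KO arrays were on a slide of their own, vehicle and RA cultures shared another slide and day, and whole testes and sorted WT cells shared one too. Each virus slide held the 4 stages of one arm and one replicate, and the 2 replicates of both arms were scanned on 2 different days.

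Stra8 had its highest level in tubules at stages VII-VIII and its lowest in N3KO Sertoli cells, 11.3 apart on the log2 scale. At VII-VIII its levels were 4.59 and 4.90 in dnRARa tubules, 4.66 and 4.22 in Venus tubules and 5.46 and 5.62 in untreated tubules. RA-treated Sertoli cells came next, with 3.94 and 3.83, and overlapped untreated tubules at IX-XII (3.25 and 3.94). Whole testes, at 3.22 and 3.36, overlapped Venus tubules at IX-XII (3.29 and 3.36). Tubules at I-III and IV-VI followed, with group means between 2.51 in untreated tubules at I-III and 0.87 in dnRARa tubules at IV-VI. Vehicle-treated cells (-0.02 and -0.04) lay just above sorted WT cells (-0.25 and -0.08), with no overlap. N3KO cells, at -5.80 and -5.69, were not well above background on either array, so only a bound is known there. The pair that differed most was dnRARa tubules at I-III, with 2.45 and 0.49, a gap of 1.96 against a median gap of 0.19 over all groups.

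Rec8 was measured above background on every array, and its order of groups was another one. It was highest in tubules at IV-VI, where dnRARa tubules had 5.48 and 5.53, Venus tubules 5.40 and 5.25 and untreated tubules 5.12 and 5.16. The tubule groups at I-III and VII-VIII had means between 5.20 and 4.40, whole testes had 4.20 and 4.28, and the 3 IX-XII groups had means between 2.52 and 1.65. Sorted WT cells had 2.13 and 2.10, RA-treated cells 1.21 and 1.19 and vehicle-treated cells -1.36 and -1.40. N3KO cells had -2.03 and -0.96, a gap of 1.07 that spans the vehicle values. In the order of means, groups did not overlap the next one down at 7 places: below IV-VI dnRARa, below IV-VI untreated, and at each place from whole testes down except between the 2 highest IX-XII groups and between vehicle and N3KO.

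**Figure D1:**
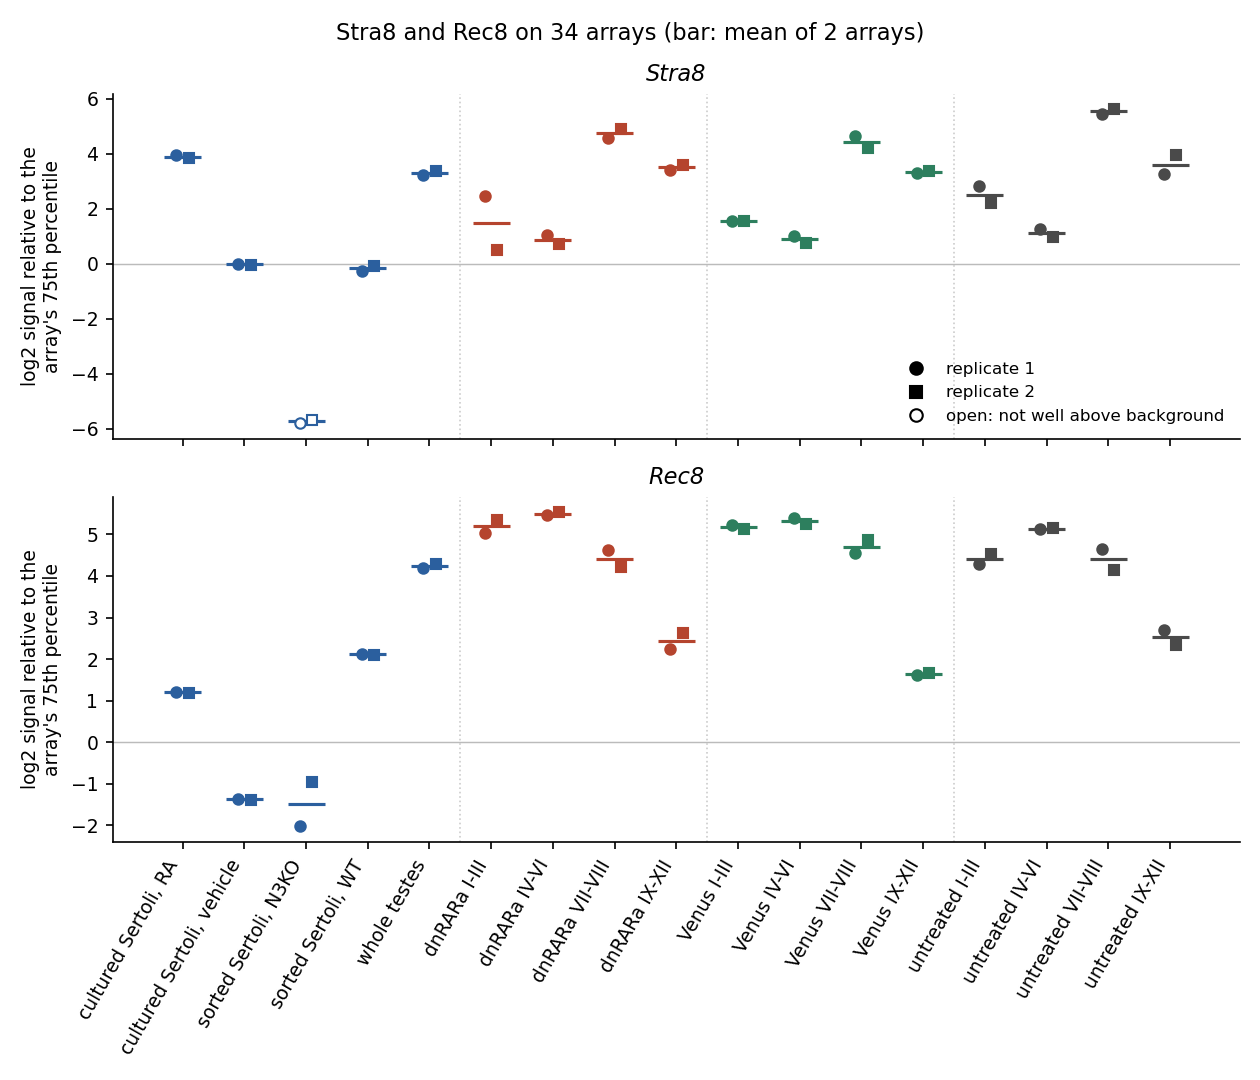
Log2 levels of Stra8 and Rec8 relative to the array's 75th percentile in all 17 groups, with a circle for replicate 1, a square for replicate 2, a bar for the mean of 2 arrays and open symbols where the probe was not well above background. Stra8 peaks in the VII-VIII groups and Rec8 in the IV-VI groups, and both are low in N3KO cells.

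Sorted WT Sertoli cells held less of both transcripts than whole testes. Stra8 averaged -0.17 ± 0.12 in sorted WT cells and 3.29 ± 0.10 in whole testes (SD, n = 2 each), 11.0-fold lower (log2 difference -3.45, SE 0.11, limma adjusted p = 1.48e-06). Rec8 averaged 2.12 ± 0.02 in sorted WT cells and 4.24 ± 0.06 in whole testes, 4.36-fold lower (-2.12, SE 0.30, limma adjusted p = 0.00051). In this comparison 79.2% of the 22910 genes tested passed (38.4% higher, 40.8% lower), so passing is common. In bulk RNA, fewer cells of a type and less RNA per cell cannot be told apart. Of the 15 meiotic entry regulators tested, 10 were lower and 3 higher in sorted WT cells, with a median difference of -2.56, against -0.062 over all genes. The entry regulators counted here and below include Stra8, and the cohesin genes include Rec8. Sohlh2, a transcription factor of spermatogonia, fell by 2.56 and Pcgf6, a Polycomb subunit, by 2.09, while E2f6, a repressor of germ cell genes in somatic cells, rose by 1.67. Of 17 cohesin genes, 14 were lower and 2 higher: the securin Pttg1 fell by 2.57 and the centromere protector Sgo2a by 3.1, and Smc1a, the SMC subunit of all dividing cells, rose by 3.08.

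Sertoli cells from Nanos3-knockout testes held less of both genes than sorted WT cells. Stra8 was at least 43.4-fold lower in N3KO cells, the fold being a bound on this scaling since N3KO cells were not well above background (measured means -5.74 and -0.17, limma adjusted p = 2.95e-07). The measured log2 difference of -5.58 was -4.96 with median scaling and -2.10 with normexp background correction, both smaller than that bound. Rec8 averaged -1.49 ± 0.76 in N3KO cells and 2.12 ± 0.02 in sorted WT cells, 12.2-fold lower (-3.61, SE 0.30, limma adjusted p = 8.2e-05). Of 21477 genes tested 48.8% passed, 26.3% higher and 22.5% lower. Leaving out any 1 of these 4 arrays kept the call of Rec8, between -4.14 and -3.07.

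Several germ cell genes went below background together with Stra8. Mael, a piRNA pathway protein of germ cells, was at least 732-fold lower in N3KO than in WT cells, Tcfl5, a spermatocyte transcription factor, at least 68.3-fold and Dmrtc2 at least 59.5-fold. Such bounds, as for Stra8, apply on this scaling and were not set under the others. In all, 8 of 15 entry regulators were lower and 2 higher, with a median of -0.53, against 0.073 over all genes (1 to 6 higher and 4 to 9 lower over the alternatives). Of the 17 cohesin genes 6 were lower and 6 higher, with a median of -0.05 (4 lower and 10 higher with median scaling, which moved all differences of this comparison up by 0.62). The meiotic subunits Smc1b, at least 130-fold lower, and Stag3, at -7.67 with 1 of 2 N3KO arrays above background, were among the lower ones with Rec8, while Sgo1, a protector of centromeric cohesion in dividing cells, rose by 1.45. All 12 spermatid markers and all 10 pachytene spermatocyte markers were lower in N3KO cells. Ddx4, a general germ cell marker, had -4.53 and -4.30 in N3KO cells against 2.67 and 2.06 in WT cells. The part of germ cell RNA in the Stra8 and Rec8 differences was not tested, and genotype and slide cannot be told apart.

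Both genes rose when cultured Sertoli cells were given RA. Stra8 had 3.94 and 3.83 with RA against -0.02 and -0.04 with vehicle, 15.1-fold higher (3.92, SE 0.11, 95% interval 3.66 to 4.17, limma adjusted p = 1.77e-05). Rec8 had 1.21 and 1.19 with RA against -1.36 and -1.40 with vehicle, 5.97-fold higher (2.58, SE 0.30, 95% interval 1.86 to 3.29, limma adjusted p = 0.00425). The RA and vehicle arrays did not overlap for either gene, and 5.47% of the 20078 genes tested passed in this comparison, 3.55% higher and 1.93% lower (1099 genes, with 363 to 7196 over the alternatives). All 4 arrays were on 1 slide. The share of all genes without overlap between RA and vehicle arrays was not counted.

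In this fit few other genes of meiotic entry passed with RA. Of 14 entry regulators tested, 2 rose and none fell, with a median of 0.21, against 0.009 over all genes: Stra8 and Cyp26b1, an RA-degrading enzyme that keeps RA from fetal germ cells in males (3.76, SE 0.27, limma adjusted p = 0.000624). At an unadjusted p under 0.05 the count was 4 of 14, against 3593 of 20078 genes in all. Kit, the stem cell factor receptor of differentiating spermatogonia, had -1.16 and -1.24 with RA and -2.04 and -2.02 with vehicle, a difference that did not pass (0.83, SE 0.48, limma adjusted p = 0.463). The SE of each gene was pooled over all 10 testis and Sertoli cell arrays, so it reflects more than the spread of the RA and vehicle pairs. Of 17 cohesin genes Rec8 rose and Esco2, an acetyltransferase that locks cohesin in S phase, fell by 0.42 (SE 0.09, limma adjusted p = 0.0444). The meiotic partners of Rec8 had smaller differences that did not pass, 0.34 (SE 0.20) for Smc1b and 0.26 (SE 0.37) for Stag3. None of the 17 synapsis and recombination genes tested passed in limma. None had an unadjusted p under 0.05, against the same 3593 of 20078 genes in all.

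General RA targets rose beside the pair. Of 10 such genes tested, 9 rose, Cyp26b1 again among them, with a median difference of 3.95. Dhrs3, a retinal reductase, rose by 5.21 (SE 0.11), Nr0b1, an orphan receptor of Sertoli cells, by 6.48, and Tgm2, a transglutaminase, by 2.58. Cyp26a1, an RA-degrading enzyme, had 2.81 and 2.85 with RA and was not well above background with vehicle, so it was at least 663-fold higher on this scaling. Rarb, the RA receptor gene that RA itself induces, had -1.42 and -1.37 with RA against -5.00 and -4.75 with vehicle.

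**Figure D2:**
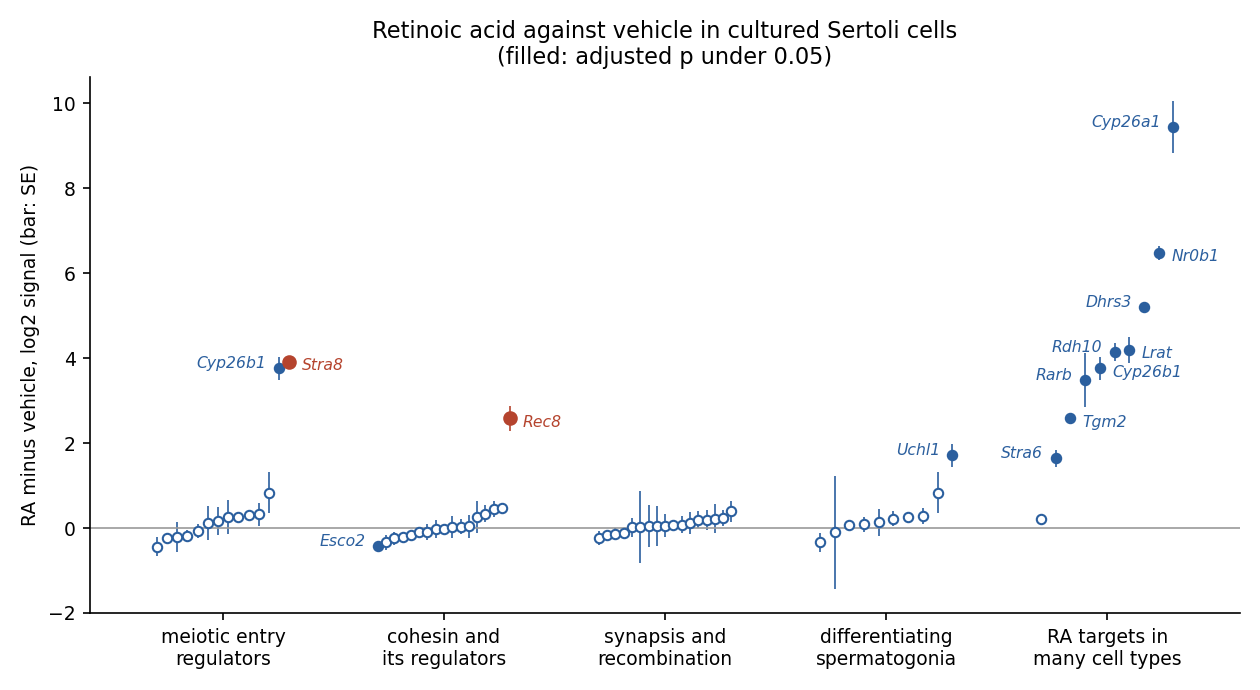
Log2 difference, RA minus vehicle, of each tested gene of the meiotic entry, cohesin, synapsis, differentiating spermatogonia and RA target lists, with bars of 1 SE and filled symbols where the limma adjusted p was under 0.05. Stra8 (3.92) and Cyp26b1 (3.76) lie highest among the entry regulators and Rec8 (2.58) among the cohesin genes, and 9 of 10 RA targets are filled and lie above 0; values of Cyp26a1 and Lrat are fitted, since vehicle arrays were not well above background.

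Germ cell transcripts were present in these cultures in both arms. Ddx4 had 0.88 and 0.68 with RA and 0.59 and 0.57 with vehicle, and Sox9, the Sertoli transcription factor, had 3.79 on both RA arrays and 3.32 and 3.29 with vehicle. The summed level of 10 differentiating spermatogonia markers, as multiples of the 75th percentile signal, was 123 and 124 with RA against 57.8 and 55.5 with vehicle. Uchl1, a deubiquitinase also made outside spermatogonia, made 86.5 and 86.6 of the sum with RA against 27.3 and 25.8 with vehicle, so most of the difference is that gene. Ccnd2 made most of the rest in both arms, with mean log2 levels of 5.14 with RA and 4.85 with vehicle. In untreated tubules Ccnd2 was at -1.15 at I-III and -1.43 at IV-VI. The sum in these cultures is therefore mostly Uchl1 and Ccnd2. Uchl1 was the 1 of the 10 that passed (1.71, SE 0.27, limma adjusted p = 0.0157). The sum over 10 pachytene markers was 34 and 28.5 with RA against 26.7 and 27.9 with vehicle. The part of germ cells in the rise of Stra8 and Rec8 was not tested.

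Culture itself was compared with the sort. Stra8 averaged -0.03 ± 0.01 in vehicle-treated cells and -0.17 ± 0.12 in sorted WT cells, a difference that did not pass (0.14, 95% interval -0.13 to 0.40, limma adjusted p = 0.295). With each array centred on its median instead, all differences of this comparison moved up by 0.96 and Stra8 passed, at 1.10 (limma adjusted p = 0.000519). Rec8 was 11.3-fold lower in vehicle-treated than in sorted WT cells (-3.49, SE 0.30, limma adjusted p = 5.02e-05), where 74.8% of 22436 genes passed, 32.1% higher and 42.7% lower. Of 15 entry regulators 5 were higher and 6 lower (4 to 8 and 2 to 7 over the alternatives), with Dazl, a germ cell RNA-binding protein, 2.72 higher and Kit 5.23 lower. Of 17 cohesin genes 10 were higher and 3 lower, with Sgo1 4.27 and Cdca5, which stabilises cohesin in dividing cells, 3.01 higher. Culture, slide and day cannot be told apart.

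Along the seminiferous cycle the genes had their highest means at different stages, Stra8 at VII-VIII and Rec8 at IV-VI in each arm. In dnRARa tubules Stra8 had 2.45 and 0.49 at I-III, 1.04 and 0.71 at IV-VI, 4.59 and 4.90 at VII-VIII and 3.40 and 3.59 at IX-XII. In Venus tubules it had 1.54 and 1.55, 1.02 and 0.75, 4.66 and 4.22, and 3.29 and 3.36 in the same order. Untreated tubules had 2.82 and 2.21, 1.25 and 0.97, 5.46 and 5.62, and 3.25 and 3.94. Stage passed for Stra8 in each arm (limma F 33.8 in dnRARa, 27.8 in Venus and 37.7 in untreated tubules, adjusted p 9.55e-06, 2.47e-05 and 4.23e-06), where 55.0%, 53.9% and 69.2% of genes passed. All 3 arms had their lowest Stra8 mean at IV-VI and their highest at VII-VIII, with no overlap between these stages. Such lack of overlap was not counted over all genes.

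Stra8 at VII-VIII over IV-VI was 14.6-fold higher in dnRARa tubules (3.87, limma adjusted p = 1.51e-05), 11.7-fold in Venus tubules (3.55, limma adjusted p = 2.67e-05) and 21.6-fold in untreated tubules (4.43, SE 0.43, limma adjusted p = 2.25e-06). In the same step 31.6%, 33.1% and 42.5% of all genes passed in these 3 arms, in untreated tubules 22.1% higher and 20.3% lower. Within single slides the step of Stra8 was 3.55 and 4.19 in dnRARa tubules and 3.64 and 3.47 in Venus tubules. In untreated tubules the IV-VI arrays had a slide of their own, and so did the I-III arrays. Untreated steps from or to these stages were therefore between slides.

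After its peak Stra8 fell by 1.25 at IX-XII against VII-VIII in dnRARa tubules (limma adjusted p = 0.0345) and by 1.95 in untreated tubules (limma adjusted p = 0.00155). Venus tubules had -1.11 at that step, which did not pass (limma adjusted p = 0.0591). The dnRARa call at this step was lost when any 1 of its 4 arrays was left out (limma adjusted p 0.0706 to 0.154). Stra8 was lower again at I-III than at IX-XII by 2.03 in dnRARa tubules (limma adjusted p = 0.00219; -0.95 and -3.10 within its 2 slides, and -3.01 to -1.05 with 1 array left out, the extremes without replicate 1 and without replicate 2 at I-III) and by 1.77 in Venus tubules (limma adjusted p = 0.00449), and the untreated value of -1.08 did not pass (limma adjusted p = 0.0629). At IV-VI against I-III only untreated tubules passed, at -1.41 (limma adjusted p = 0.0287), a call lost in 3 of the 4 fits without 1 array. The dnRARa value of that step was -0.60, and it was 0.38 without replicate 1 at I-III and -1.58 without replicate 2.

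Rec8 was high through the first 3 stage groups and dropped at the last. In dnRARa tubules it had 5.04 and 5.36 at I-III, 5.48 and 5.53 at IV-VI, 4.62 and 4.21 at VII-VIII and 2.25 and 2.63 at IX-XII. In Venus tubules it had 5.22 and 5.14, 5.40 and 5.25, 4.56 and 4.87, and 1.62 and 1.67 in the same order. Untreated tubules had 4.29 and 4.53, 5.12 and 5.16, 4.65 and 4.14, and 2.70 and 2.34. Stage passed for Rec8 too (limma F 94.4, 149 and 64.1 in the same order of arms, adjusted p 1.36e-07, 2.36e-08 and 4.05e-07). In each arm both IX-XII arrays were below every other array of the arm.

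Rec8 at IX-XII against VII-VIII was 3.94-fold lower in dnRARa tubules (-1.98, limma adjusted p = 2.62e-06), 8.38-fold lower in Venus tubules (-3.07, limma adjusted p = 7.52e-08) and 3.67-fold lower in untreated tubules (-1.87, limma adjusted p = 2.35e-06). The share of all genes passing at this step was 39.0%, 36.5% and 49.8% in the 3 arms, in untreated tubules 25.2% higher and 24.7% lower. Within slides the step was -2.37 and -1.58 in dnRARa tubules and -2.94 and -3.20 in Venus tubules, and the untreated arrays of these stages shared 1 slide. From IX-XII on to I-III Rec8 rose by 2.76 in dnRARa, 3.53 in Venus and 1.89 in untreated tubules (limma adjusted p 1.08e-06, 2.3e-08 and 2.66e-05), where 33.3%, 38.4% and 34.6% of genes passed. The untreated value of this step was between slides.

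The step of VII-VIII against IV-VI, at which Stra8 rose, was downward for Rec8. Rec8 fell by 1.09 in dnRARa tubules (limma adjusted p = 0.000773), by 0.61 in Venus tubules (limma adjusted p = 0.0292) and by 0.74 in untreated tubules (limma adjusted p = 0.00698). The untreated call was lost without replicate 2 at VII-VIII (-0.49, limma adjusted p = 0.112), and the Venus call without either IV-VI array or without replicate 1 at VII-VIII. At IV-VI against I-III Rec8 rose in untreated tubules by 0.73 (limma adjusted p = 0.0158), where 22.4% of genes passed, and that call was lost in 3 of the 4 fits without 1 array. The dnRARa and Venus tubules had 0.30 and 0.15 at that step, with positive values on all 4 virus slides (0.44 and 0.17 in dnRARa, 0.18 and 0.11 in Venus tubules), and did not pass, where 10% and 0.0% of genes passed. Differences between untreated and virus tubules in this step were not tested for either gene. In Venus tubules that was 0 of 22622 genes in limma, and 2033 had an unadjusted p under 0.05.

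**Figure D3:**
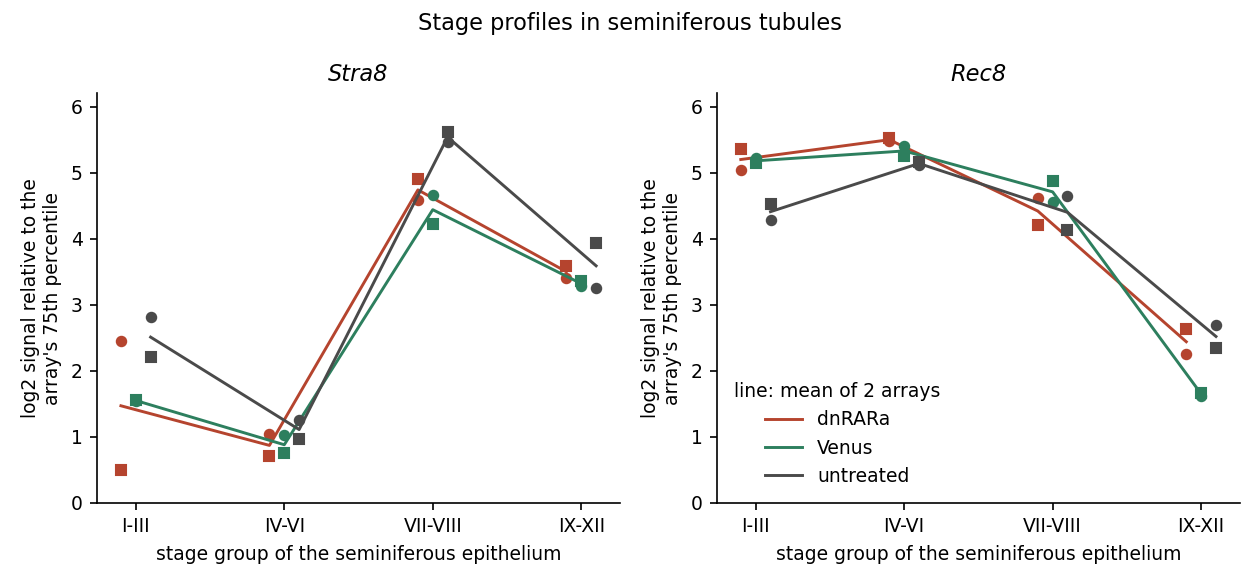
Log2 levels of Stra8 and Rec8 relative to the 75th percentile across the 4 stage groups in dnRARa, Venus and untreated tubules, with points for the 2 arrays and lines through their means. The mean of Stra8 is lowest at IV-VI and highest at VII-VIII in each arm, although replicate 2 in dnRARa tubules is lowest at I-III (0.49, against 0.71 at IV-VI), and the mean of Rec8 is lowest at IX-XII in each arm.

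Set beside the pair, the entry regulators did not all move with Stra8. At VII-VIII against IV-VI in untreated tubules 2 of 15 rose, Stra8 itself being counted among them, and 4 fell, with a median of -0.20. In this step 42.5% of all genes passed (22.1% higher, 20.3% lower), so the count is near that share. Pcgf6 rose by 0.69, and Sohlh2 fell by 1.63 and Mybl1, a master transcription factor of pachytene spermatocytes, by 1.44. Of 9 RA targets tested at this step 4 rose, among them Cyp26a1, at least 9.83-fold higher on this scaling, Rdh10, which makes retinal, by 2.79, and Nr0b1 by 1.93. The summed markers of differentiating spermatogonia were 29.2 and 30.7 at VII-VIII against 17.4 and 17.2 at IV-VI in untreated tubules, of which Uchl1 made 19.6 and 21.4 against 9.46 and 8.82. In dnRARa tubules these sums were 15.0 and 15.4 at VII-VIII against 14.4 and 17.1 at IV-VI. The part of the cell makeup in the rise of Stra8 was not tested.

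Among the 17 cohesin genes Rec8 had the lowest or second lowest difference at IX-XII against VII-VIII in each arm. Stag2, a somatic cohesin subunit, was the other, with falls of 2.74, 3.02 and 1.89 in dnRARa, Venus and untreated tubules. In untreated tubules 4 cohesin genes fell and 5 rose at this step, with a median of 0.26, near the 49.8% of all genes that passed (25.2% higher, 24.7% lower). Smc3, the SMC subunit of every cohesin ring, fell by 1.21 and Esco2 by 1.37. Sgo2a, which guards Rec8 at meiotic centromeres, rose by 3.01, separase (Espl1), which cuts Rec8, by 1.73, and its inhibitor securin (Pttg1) by 1.37. Smc1b and Stag3, which share the meiotic ring with Rec8, had -0.18 and 0.39 and did not pass (limma adjusted p 0.656 and 0.11). Over the 12 tubule groups the means of Stra8 and Rec8 had a Pearson's r of -0.472 (Spearman's rho -0.699), and over all 17 groups 0.47 (rho 0.027), groups that share slides and stages.

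**Figure D4:**
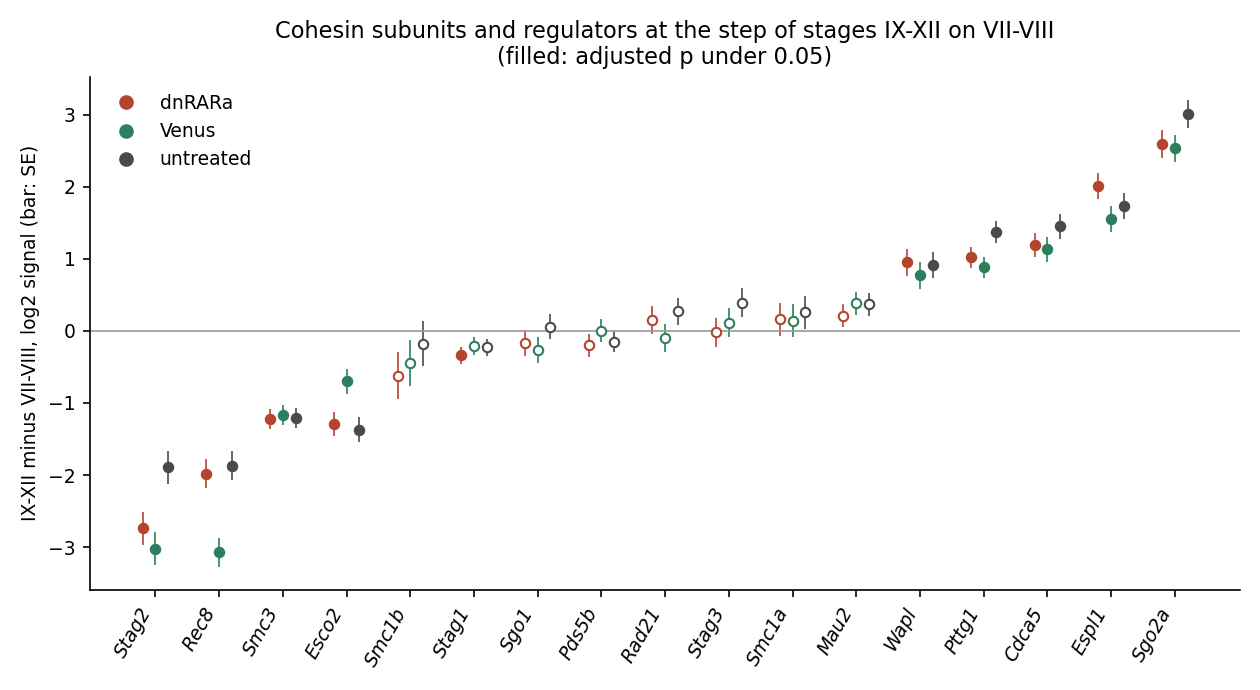
Log2 difference, IX-XII minus VII-VIII, of the 17 cohesin genes in dnRARa, Venus and untreated tubules, with bars of 1 SE. Rec8 and Stag2 lie lowest in every arm and Sgo2a highest.

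The dominant negative receptor was compared with Venus to ask what blocked RA signalling changes. Each slide of these arrays held 1 arm, so arm and slide cannot be told apart. Stra8 did not pass, over the mean of the 4 stages (2.65 in dnRARa and 2.55 in Venus tubules, difference 0.10, 95% interval -0.37 to 0.57, limma adjusted p = 0.826) or in any stage. At VII-VIII, its peak, the difference was 0.31 (95% interval -0.63 to 1.24, limma adjusted p = 0.858), -0.07 within the first scan day of the virus arrays and 0.68 within the second. At I-III the within-day values were 0.91 and -1.06, opposite in sign, at the stage where the dnRARa pair differed most. Without replicate 1 of that pair the mean difference over stages was -0.15. The step of VII-VIII on IV-VI differed between dnRARa and Venus by 0.32 (95% interval -1.01 to 1.64, limma adjusted p = 0.989), where 0.323% of genes passed.

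Rec8 passed in 1 stage group. At IX-XII it had 2.25 and 2.63 in dnRARa tubules against 1.62 and 1.67 in Venus tubules, 1.73-fold higher (0.79, SE 0.20, 95% interval 0.36 to 1.22, limma adjusted p = 0.036), where 4.70% of 23097 genes passed, 3.19% higher and 1.51% lower. The dnRARa and Venus arrays did not overlap, which was not counted over all genes. The difference was 0.62 within the first scan day and 0.96 within the second. Each of these was 1 array against 1 on another slide, so arm and slide cannot be told apart. Untreated tubules at IX-XII had 2.70 and 2.34, overlapping the dnRARa arrays and above both Venus arrays. The call was lost without either Venus array (limma adjusted p = 0.215 and 0.168), without dnRARa replicate 2 (0.60, limma adjusted p = 0.36) and under 7 other settings. The other stages had 0.02 at I-III, 0.18 at IV-VI and -0.30 at VII-VIII, where 0.00896%, 3.39% and 1.54% of genes passed, and the mean over stages was 0.17 (95% interval -0.04 to 0.39, limma adjusted p = 0.298), where 12.3% passed, 8.31% higher and 3.98% lower. The difference between stages did not pass for Rec8 (interaction F 5.15, limma adjusted p = 0.262) or for Stra8 (F 0.16, limma adjusted p = 1), in a test that 0.763% of genes passed.

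**Figure D5:**
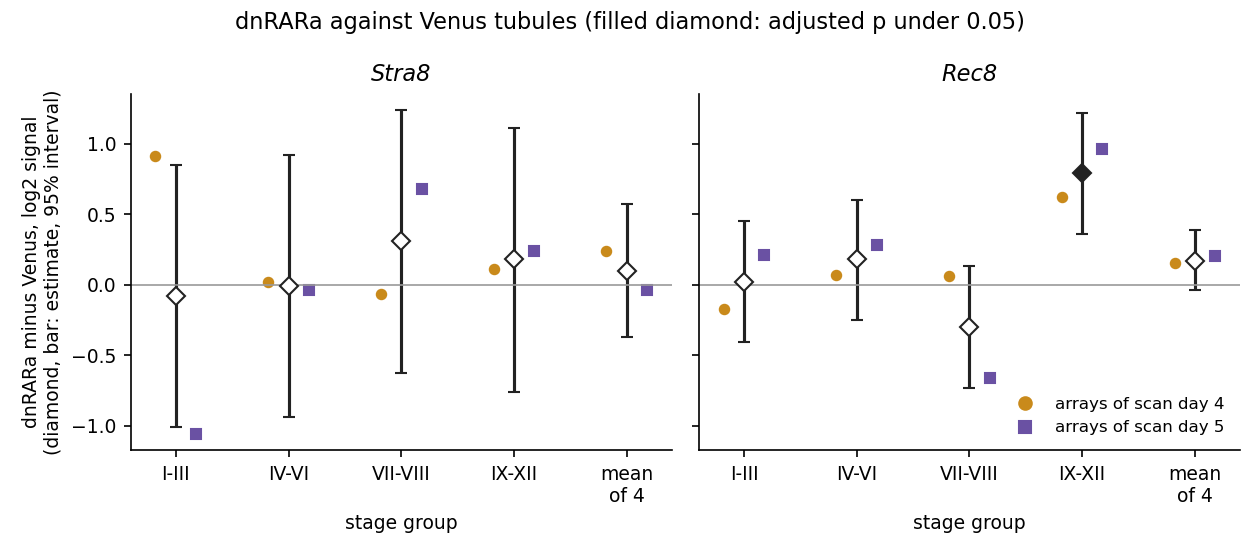
Log2 difference, dnRARa minus Venus, of Stra8 and Rec8 in each stage group and over their mean, with diamonds and bars for the estimate and its 95% interval, and small dots and squares for the differences within the first and second scan day of the virus arrays. The interval excludes 0 for Rec8 at IX-XII and includes it for every other value.

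Some RA targets fell with dnRARa. Over the mean of stages 5 of 11 tested were lower and none higher (2 to 5 lower and 0 to 2 higher over the alternatives), with a median of -0.33, against 0.017 over all genes, of which 12.3% passed (8.31% higher, 3.98% lower). Tgm2 fell by 0.58 (SE 0.11, limma adjusted p = 0.00329) and Cyp26b1 by 0.38, the last also the only one of 15 entry regulators to pass. Cyp26a1 at VII-VIII had -3.83 and -4.28 in dnRARa tubules against -1.64 and -2.60 in Venus tubules, a difference that did not pass (-1.94, SE 0.72, limma adjusted p = 0.257). Of 17 synapsis genes 4 rose and none fell, against the same 8.31% and 3.98% of all genes, among them the axial element genes Sycp3 by 0.50 (limma adjusted p = 0.00274) and Sycp2 by 0.57 (limma adjusted p = 0.00436). None of the 17 cohesin genes passed over the mean of stages in limma. At an unadjusted p under 0.05 there was 1 of them, against 6402 of 24116 genes in all. The fit over the mean of stages took the arrays of an arm as independent, although they shared slides. At IX-XII, where Rec8 passed, Rec8 was 1 of 17 cohesin genes higher, and 3.19% of all genes were higher and 1.51% lower. Hormad1, Sycp3 and Mnd1, which act in synapsis and strand exchange, were 0.64, 0.74 and 0.77 higher. They were picked from the 17 synapsis genes, and the others at this stage are not given here. The summed markers of differentiating spermatogonia were 12.5 and 16.6 in dnRARa against 23.0 and 22.4 in Venus tubules at IX-XII, and 15.0 and 15.4 against 22.2 and 19.2 at VII-VIII. Uchl1 made most of both differences, with 8.36 and 12 in dnRARa against 18.5 and 17.7 in Venus tubules at IX-XII, and 8.47 and 8.02 against 15.0 and 11.8 at VII-VIII. Their part in the results of Stra8 and Rec8 was not tested.

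Injection itself was assessed by Venus against untreated tubules. Over the mean of stages Stra8 was lower in Venus tubules, 2.55 against 3.19 (-0.64, SE 0.22, 95% interval -1.11 to -0.17, limma adjusted p = 0.018), where 66.9% of genes passed, 36.3% higher and 30.6% lower. Rec8 had 4.22 in Venus and 4.12 in untreated tubules and did not pass (0.10, 95% interval -0.12 to 0.31, limma adjusted p = 0.399). By stage, Rec8 means in Venus against untreated tubules were 5.18 and 4.41 at I-III and 5.33 and 5.14 at IV-VI. They were 4.71 and 4.4 at VII-VIII and 1.65 and 2.52 at IX-XII. The mean over stages thus joins differences of opposite sign, and single stages were not tested. Of 17 Sertoli markers 13 were higher and 1 lower in Venus tubules (median 0.69), and 6 of 7 macrophage and leukocyte markers were higher (median 1.44). Their part in the Stra8 value was not tested, and virus and scan day cannot be told apart.

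The second Rec8 probe gave the same sign as the first in 23 of 23 comparisons, with differences up to 1.05 apart. It had 2.22 for RA against vehicle (limma adjusted p = 0.000303), -2.56 for N3KO against WT cells (limma adjusted p = 5.22e-06) and -0.92 for VII-VIII against IV-VI in untreated tubules (limma adjusted p = 0.0313). It did not pass for VII-VIII against IV-VI in Venus tubules (-0.69, limma adjusted p = 0.123) or for dnRARa against Venus at IX-XII (0.88, limma adjusted p = 0.16). It passed for Venus against untreated tubules (0.45, limma adjusted p = 0.024), where the first probe did not. On this probe vehicle-treated cells (-3.86 and -3.73) and not N3KO cells (-2.64 and -2.38) were lowest.

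The genes most like each member were ranked by Pearson's r of group means. Over all 17 groups those nearest Stra8 among 12779 genes were Nxf2 (0.904), Mastl (0.901), Pcyt1a (0.895), Srxn1 (0.89) and Magea3 (0.882). By Spearman's rho these ranked 179, 50, 1, 13 and 24, so this order depends on the measure. Over the 12 tubule groups, with 6809 genes ranked, they were Gid4 (0.977), Inpp1 (0.975), Bcl3 (0.973), Timp4 (0.966) and Enpp6 (0.966). Those nearest Rec8 over 17 groups were Zfp169 (0.976), Chrna5 (0.972), Hipk4 (0.972), DXBay18 (0.968) and Ces5a (0.968), and over the tubule groups Ccdc184 (0.996), Smad6 (0.995), Naa80 (0.994), Zfp169 (0.993) and Grcc10 (0.993). Zfp169 was in both Rec8 lists and no gene was in both Stra8 lists. Outside the Stra8 list over 17 groups, ranks by rho lay between 1 and 52.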

How the data were processed

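Per the labels, 0.20 µg of total RNA per sample was labelled with Cy3 for 1 one-colour Agilent array. The deposited files hold intensity. Per the file headers, spots were read by the authors with Agilent Feature Extraction 9.5.3.1 (9.5 per the submitters' processing notes), which subtracts background, and the deposited series values equal that processed signal, with no scaling between arrays. Other deposited columns, per the file headers, mark spots well above background or non-uniform. The precision of an array is limited by its signal over background.

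Of 45018 spots, 1639 controls and the 32 to 274 outlier spots per array were left out. From each log2 processed signal the 75th percentile of its own array was subtracted, replicate spots were averaged, and a gene is its probe with the highest mean signal. Of 41174 probes, 22951 were named by accession and 67 by symbol through RefSeq. Genes were tested if both arrays of 1 or more of the groups compared were well above background, with limma 3.58.1 (R 4.3.3), two-sided, in 1 model of 10 testis and Sertoli cell arrays (5 residual degrees of freedom) and 1 of 24 tubule arrays (12), with Benjamini-Hochberg adjustment over all genes tested in each of 24 comparisons called under 0.05. The stage F test of each arm, beside these 24, was adjusted in the same way. Where neither array of a group was well above background, a fold against it is a lower bound, set by the dimmest spot marked so on those arrays. Each bound applies on this scaling and was not set under the alternatives. For Stra8 in N3KO against WT cells, median scaling and normexp gave smaller differences than the bound. The script was tested on simulated data. Figures used python 3.11.15, pandas 2.3.3 and matplotlib 3.10.9.

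Genes named were Stra8 and Rec8, up to 4 members of a list by smallest adjusted p, the 5 genes most like each member by Pearson's r (SD of group means at least 0.5), and a few markers set beside a result; 1 gene that this rule names is not reported here. Outside that rule, Nanos3 and the further cohesin, RA target and marker genes were named after their values were seen. The members and lists were chosen with earlier results of these data known. The lists hold 16 of 23 meiotic entry regulators, 17 of 21 cohesin genes, 19 of 35 synapsis and recombination genes and 14 of 15 RA targets on the array; Meiosin was not matched to a probe. Among genes on the array, Dmrt1, Kit, Sohlh2, Cyp26b1, Nanos2 and Nanos3 are each on 2 lists, so counts of those lists share them. Alternatives were quantile and median scaling, normexp (offset 50), the mean of probes, no detection filter, 1 model, only the arrays compared, replicate, slide and scan-day blocks, and leaving out each array.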

Additional observations from a re-analysis of the deposited data

How the results depend on the processing

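Over 48 results, 458 of 484 values under other settings and 246 of 272 values with 1 array left out kept their direction and side of the threshold. Scaling by quantiles gave Stra8 at IX-XII against VII-VIII in Venus tubules -1.18 (adjusted p = 0.0392, now past it), Stra8 in dnRARa against Venus at IV-VI 0.00 and Rec8 in dnRARa against Venus at IX-XII 0.74 (0.0571). Median scaling gave Stra8 in vehicle against sorted WT cells 1.10, Rec8 in dnRARa against Venus -0.09 at I-III and 0.75 at IX-XII. Normexp gave Rec8 at IV-VI against I-III untreated 0.50, Stra8 at IX-XII against VII-VIII dnRARa -1.23 and Rec8 dnRARa against Venus at IX-XII 0.86, and Stra8 in N3KO against WT cells -2.10, where N3KO signal was near background. The mean of probes gave Rec8 at VII-VIII against IV-VI Venus -0.65 and dnRARa against Venus at IX-XII 0.83. No detection filter left values as they were and lost 4 calls with more genes tested: Stra8 at IV-VI against I-III untreated (-1.41) and IX-XII against VII-VIII dnRARa (-1.25), Rec8 at VII-VIII against IV-VI Venus (-0.61) and dnRARa against Venus at IX-XII (0.79). With 1 model, Stra8 passed at I-III against IX-XII untreated (-1.08) and IX-XII against VII-VIII Venus (-1.11), and Rec8 did not at VII-VIII against IV-VI Venus (-0.61) or IX-XII dnRARa against Venus (0.79). With only the arrays compared, the same Stra8 Venus value (-1.11) passed, and calls were lost, with fewer arrays, for Rec8 in untreated tubules at I-III against IX-XII (1.89), IV-VI against I-III (0.73) and VII-VIII against IV-VI (-0.74), Rec8 dnRARa against Venus at IX-XII (0.79), Stra8 at IV-VI against I-III untreated (-1.41) and at I-III against IX-XII dnRARa (-2.03). Causes other than those named were not tested. The stage F tests were not among the 48 results. The labels tie replicate numbers to no animal or batch, but in the virus groups each number was also 1 scan day; deviations of same-numbered arrays correlated at -0.07 to 0.698 over 28 pairs of virus groups, 0.204 to 0.703 over 6 of untreated tubules and -0.087 to 0.14 over 10 of testis and Sertoli cell groups. With the replicate block the RA differences were 3.92 for Stra8 and 2.58 for Rec8, and none of the 48 calls of the pair changed, while the genes called in dnRARa against Venus at VII-VIII went to 558, against 356, and at I-III to 31, against 2. No call of the pair changed in the fits that could be made with a fixed slide block (22 of 48), scan day (38) or a random slide block (40). With 1 array left out, where a call or sign changed, Stra8 ranged between -1.42 and -0.74 (I-III against IX-XII untreated), -1.71 and -1.10 (IV-VI against I-III untreated), -1.58 and 0.38 (the same step, dnRARa), -1.40 and -1.09 (IX-XII against VII-VIII dnRARa), and in dnRARa against Venus between -0.15 and 0.34 (mean), -1.06 and 0.90 (I-III) and -0.17 and 0.15 (IV-VI). Rec8 ranged between 0.61 and 0.85 (IV-VI against I-III untreated), -1.0 and -0.49 (VII-VIII against IV-VI untreated), -0.77 and -0.45 (the same step, Venus), and in dnRARa against Venus between -0.14 and 0.18 (I-III) and 0.60 and 0.98 (IX-XII). The number of genes called moved more: 1099 for RA against vehicle, with 363 to 7196 over the alternatives, 2964 (729 to 4648) for dnRARa against Venus over stages and 1085 (261 to 1497) at IX-XII. Of RA targets 7 to 10 rose with RA and 2 to 5 fell with dnRARa.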
